A study of Mus musculus with 9 samples.

Results

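The regions described here are 16071 stretches of open chromatin in mouse embryonic stem cells. They overlapped the peak lists of both groups of cells with added Esrrb and not that of their Nanog knockout counterpart. They were taken from the 157497 regions of a deposited ATAC-seq count table. ATAC-seq reads open chromatin by cutting it with a transposase that tags the ends for sequencing. A region was a member if it lay on an autosome or the X chromosome, overlapped by at least 1 bp an interval of the NanogKO:Esrrb peak list and of the NanogKO:Esrrb:Nanog peak list, and overlapped none of the NanogKO list. Members made up 10.2% of the counted regions. They were thus chosen by the authors' peak calls in these same libraries.

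The 9 libraries fell into 3 groups of 3, all labelled as Nanog knockout in origin. NanogKO cells (sample code 44C6, cell line N{delta}) carried no named addition, NanogKO:Esrrb cells (44J) had Esrrb, and NanogKO:Esrrb:Nanog cells (44JN) had Esrrb and Nanog. The labels give both Esrrb groups the same line name, N{delta}:cE:iN, and do not say how the factors were added, at what level, for how long, or from how many clones. Every comparison with NanogKO is therefore also one between differently named lines, and genotype and line cannot be told apart. All cells grew untreated in 10% serum with 1000 U/ml of LIF, the leukaemia inhibitory factor that keeps stem cells self-renewing. Cells positive for PECAM and negative for PDGFRA were sorted. Nothing in the labels makes the replicates separate cultures, so the p-values reflect only how far these libraries spread, which may be technical.

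NANOG, a homeodomain factor, and ESRRB both belong to the transcription factor network of pluripotency, and Esrrb is a well-known target of NANOG. ESRRB is an orphan nuclear receptor that binds DNA as a single molecule at the sequence TCAAGGTCA, an extended form of the nuclear receptor core motif AAGGTCA. Added ESRRB is known to sustain self-renewal of embryonic stem cells that lack NANOG. In stem cells, ATAC-seq peaks away from gene starts often mark enhancers, where several pluripotency factors bind close together.

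The names of the peaks in the 3 lists bear on how the members were chosen. Every peak name in the NanogKO:Esrrb list was that of NanogKO:Esrrb replicate 3, and every peak name in the NanogKO:Esrrb:Nanog list was also that of NanogKO:Esrrb replicate 3, not of a library of its own group. The lists shared 102788 peak names, with the same score for each. All members had the same best score in both lists, so membership rested on peaks of 1 NanogKO:Esrrb library, cut to the stretches that each list kept. The third list carried the peak names of NanogKO replicate 3. Since the rule used the peak lists of all 3 groups, counts of members that differ between groups are given as descriptions, and the counts over all members are set beside the same counts over all regions.

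The reference tables hold sequence for 300 bp promoter windows, from 250 bp before to 50 bp after a gene's start, and 282 members overlapped 302 of these windows. Only 2 of the 302 windows held TCAAGGTCA on either strand, 0.662% against 0.426% of all 32619 windows and 0.666% of windows with no counted region. The shorter AAGGTCA, which TCAAGGTCA contains, was in 24 windows, 7.95% against 4.71% of all windows, 3.1% of windows at regions in all 3 lists and 6.27% of windows with no counted region. At regions with a peak in 1 list only it was in 5.78% (NanogKO), 5.98% (NanogKO:Esrrb) and 6.52% (NanogKO:Esrrb:Nanog) of windows. In 15 windows this match lay inside the member. Median GC content was 53.3% in the members' windows, 53% over all windows, 61.3% at regions in all 3 lists and 46.3% without a counted region, and its part in these shares was not tested. The GC-rich GGGCGG of SP and KLF factors was in 32.5% of the members' windows, against 35.9% of all and 63.4% of those at regions in all 3 lists. The POU factor octamer ATGCAAAT was in 0.993% against 1.75% of all, the SOX motif CATTGTT in 5.96% against 3.77% of all and 5.8% with no counted region, the AP-1 motif TGACTCA in 7.28% against 5.22% and 6.91%, and the E-box CACGTG in 6.29% against 7.2%.

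The following 4 windows are printed 5′ to 3′ on the gene's strand, from RefSeq on GRCm38.p6, with motif matches in capitals. The window of the predicted gene Gm30085 (chr15:93001260-93001559, plus strand) is shown because its match to TCAAGGTCA, 54 bp before the start, was the only full match inside a member.
Gm30085: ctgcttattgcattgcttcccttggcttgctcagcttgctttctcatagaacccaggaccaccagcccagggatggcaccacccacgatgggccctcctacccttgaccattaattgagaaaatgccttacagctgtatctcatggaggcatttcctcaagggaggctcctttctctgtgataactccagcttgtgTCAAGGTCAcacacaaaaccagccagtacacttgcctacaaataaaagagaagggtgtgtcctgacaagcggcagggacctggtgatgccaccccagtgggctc
The Foxd3 window (chr4:99656049-99656348, plus strand) lies wholly inside a member and belongs to the gene of a forkhead factor of pluripotent cells. It holds an E-box 217 bp before the start and no match to AAGGTCA.
Foxd3: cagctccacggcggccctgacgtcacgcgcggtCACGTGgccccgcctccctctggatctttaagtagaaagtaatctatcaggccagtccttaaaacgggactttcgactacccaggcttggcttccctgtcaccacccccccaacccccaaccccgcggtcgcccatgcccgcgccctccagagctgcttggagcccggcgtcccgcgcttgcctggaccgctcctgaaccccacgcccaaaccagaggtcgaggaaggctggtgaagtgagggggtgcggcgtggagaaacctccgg
The other two windows were chosen after their values were seen, as windows wholly inside a member with a match to AAGGTCA. That of the predicted gene Gm46838 (chr3:105825804-105826103, minus strand) holds it on the opposite strand, as TGACCTT 106 bp before the start, and a SOX motif 166 bp before it.
Gm46838: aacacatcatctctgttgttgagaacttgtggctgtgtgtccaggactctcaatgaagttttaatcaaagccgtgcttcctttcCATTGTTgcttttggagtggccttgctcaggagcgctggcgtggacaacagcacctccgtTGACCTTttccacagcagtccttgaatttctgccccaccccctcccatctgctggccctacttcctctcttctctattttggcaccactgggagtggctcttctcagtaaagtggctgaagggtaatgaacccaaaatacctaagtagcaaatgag
The window of the predicted gene Gm52717 (chr4:32160854-32161153, minus strand) holds AAGGTCA 227 bp before the start.
Gm52717: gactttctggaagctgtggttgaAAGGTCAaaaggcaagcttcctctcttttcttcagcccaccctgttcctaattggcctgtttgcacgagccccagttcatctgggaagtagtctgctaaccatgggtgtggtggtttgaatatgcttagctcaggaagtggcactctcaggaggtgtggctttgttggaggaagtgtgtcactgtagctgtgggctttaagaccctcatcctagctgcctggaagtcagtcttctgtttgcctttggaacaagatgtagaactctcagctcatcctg

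Reads in these 4 members were lower in NanogKO in every library, as the rule selects for, but they differed in how the Esrrb groups compared. Values are CPM (reads scaled by the library total, corrected by edgeR's TMM factors), and libraries are given in the order of replicates 1 to 3. With Esrrb stands for NanogKO:Esrrb and with both factors for NanogKO:Esrrb:Nanog. The Gm30085 member (chr15:93001354-93001591) had 1.44, 1.36 and 1.99 CPM in NanogKO replicates 1 to 3, 4.49, 4.74 and 4.18 CPM with Esrrb and 4.25, 4.81 and 4.29 with both factors. The Esrrb groups overlapped, and the log2 fold change of NanogKO:Esrrb:Nanog over NanogKO:Esrrb was -0.01 ± 0.17 (SE, edgeR quasi-likelihood test, adjusted p = 0.97). The Gm52717 member (chr4:32160763-32161197), 77216 bp from Bach2, had 0.61, 0.478 and 0.75 CPM in NanogKO, 2.68, 2.56 and 2.59 with Esrrb and 7.49, 10.1 and 13.8 with both factors. It rose with Nanog by 2.01 ± 0.19 on the log2 scale (edgeR adjusted p = 8.6e-08), and its 3 groups did not overlap. The Gm46838 member rose by 0.97 ± 0.16 (edgeR adjusted p = 0.00012), from 5.72, 7.25 and 5.06 CPM to 11.6, 13.2 and 10.6 CPM, and the Foxd3 member by 0.52 ± 0.12 (edgeR adjusted p = 0.0036).

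Library totals over the counted regions ran from 35545030 to 58520948 reads, and the median member held 44 to 136 reads in a library. No library of a group was a copy of another. Pluripotent cell markers were open, with a counted region at the promoter window of 7 of 8 genes (all but Klf4). The summed level of the 78 regions within 10 kb of these genes, 16 of them members, ran from 643 to 676 CPM in NanogKO, 852 to 919 CPM in NanogKO:Esrrb and 1050 to 1150 CPM in NanogKO:Esrrb:Nanog. The marker genes include Esrrb and Nanog, the genes of the added factors. The 16 members were chosen without a NanogKO peak, so the lower sum in NanogKO follows in part from the choice. Of 7 primitive endoderm marker genes only 1, Dab2, had a region at its promoter window, and the summed level of the 41 regions near these genes ran from 366 to 394, 294 to 336 and 327 to 345 CPM in the same groups. Summed levels near trophoblast genes (386 to 452 CPM over all 9 libraries), fibroblast genes (127 to 145) and endothelium and blood genes (211 to 245) are given for comparison, and the part of other cell types in the results was not tested.

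Members had reads in NanogKO too, and no level of regions without any peak was measured to set them against. Each of the 16071 members had reads in every library, and all of them passed the filter on low counts. The median member had 1.07, 1.19 and 1.24 CPM in NanogKO, 2.01, 2.18 and 1.91 with Esrrb and 2.16, 2.38 and 2.35 with both factors. In 9961 members (62.0%) the NanogKO mean was over 50% of the NanogKO:Esrrb mean, and in 1213 (7.55%) it was as high or higher. A missing peak in the NanogKO list thus did not mean an absence of reads, and the members are called here by their peak lists. The 87109 regions with a peak in all 3 lists had medians of 5.81 to 6.21 CPM, with all 3 NanogKO:Esrrb:Nanog libraries (6.10 to 6.21) above the other 6 (5.81 to 6.01). Together the members held 2.11 to 2.50% of all counts in NanogKO libraries, 3.97 to 4.63% in NanogKO:Esrrb and 4.46 to 5.03% in NanogKO:Esrrb:Nanog.

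**Figure D1:**
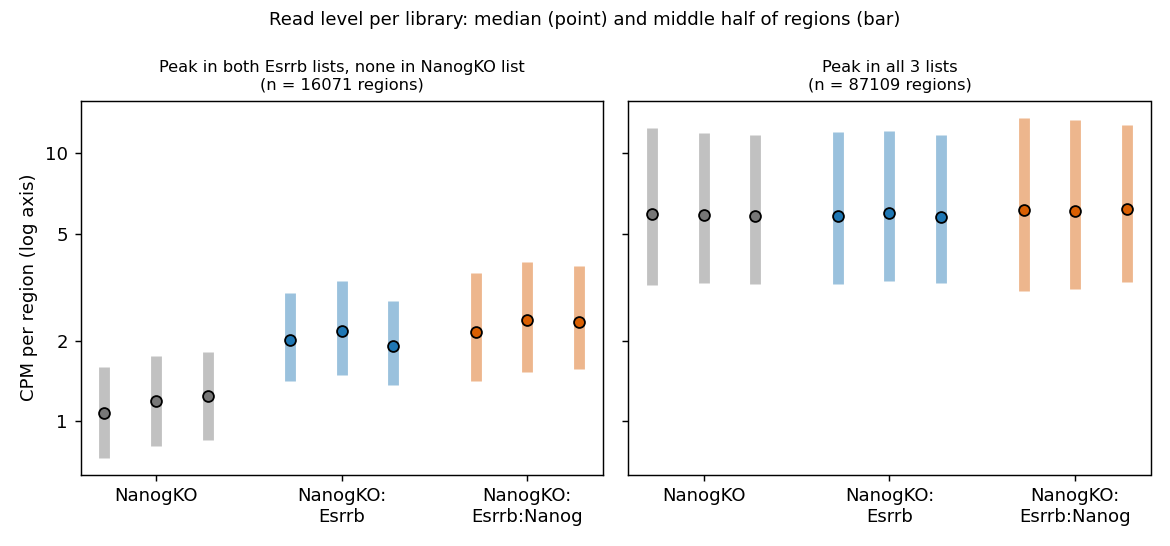
Median CPM per region (points, log axis) with the interquartile range over regions (bars) in each of the 9 libraries, for members (left) and regions with a peak in all 3 lists (right). Members' medians lie at 1.07 to 1.24 CPM in NanogKO and 1.91 to 2.38 CPM in the other libraries, and those of regions in all 3 lists stay between 5.81 and 6.21 CPM.

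The weakest peaks on either side of the rule are described by their score. Scores are the authors' own, from 13 upward in every list, and members' scores had a median of 123. The 28 members with a score of 20 or less, of median length 158 bp, had median levels of 0.841, 0.928 and 0.953 CPM in NanogKO and 1.19, 1.43 and 1.07 with Esrrb. Just outside the rule, 44 regions in all 3 lists with a NanogKO score of 20 or less, of median length 398 bp, had 1.44, 1.60 and 1.15 CPM in NanogKO and 2.30, 2.68 and 2.25 with Esrrb. Members were short, with a median length of 257 bp (9 to 1800 bp) against 511 bp for regions in all 3 lists.

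The peak calls that chose the members came from the same libraries as the contrasts with NanogKO, which are given only as a description. In NanogKO:Esrrb, 10032 members (62.4%) were called higher than in NanogKO, where 20% of all 157439 tested regions were, and 52 (0.324%) were called lower, against 17.0%. In NanogKO:Esrrb:Nanog, 11112 (69.1%) were called higher than in NanogKO, where 24.9% of all regions were, and 112 (0.697%) lower, against 24.4%. The count of 52 was 22 without NanogKO replicate 2, 21, 29 and 22 without NanogKO:Esrrb replicates 1, 2 and 3, and that of 112 was 69 without NanogKO replicate 2. The median log2 difference from NanogKO was 0.80 in NanogKO:Esrrb and 0.96 in NanogKO:Esrrb:Nanog. These comparisons share the NanogKO libraries. For 3669 members (22.8%, against 38.6% of all tested regions) no pair of groups differed at an edgeR adjusted p under 0.05. This does not show equal levels at these members, since a test on so few libraries can miss a difference. The most common pattern, in 6366 members (39.6%, against 10.8% of all tested regions), was higher than NanogKO in both Esrrb groups with no called change between those groups. In these bulk samples, fewer cells with an open region and less opening per cell cannot be told apart.

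The lowest NanogKO levels, among members with at least 100 reads in each other group, were at regions outside promoter windows. The lowest was a region 197673 bp from Il7, a lymphocyte cytokine (chr3:7811433-7811628), with 0.0488, 0.0551 and 0.122 CPM in NanogKO, 1.43, 1.83 and 1.36 with Esrrb and 0.829, 1.64 and 2.75 with both factors. It held 11 reads summed over the NanogKO libraries, against 259 and 255 in the other groups. The Esrrb groups overlapped. A region 42687 bp from Ackr3, a chemokine receptor gene, held 13, 108 and 109 reads in the 3 groups, one 37295 bp from Cox10, of haem A synthesis, held 20, 124 and 120, and one in Tshz3, a zinc finger factor, held 21, 121 and 102. In these 3 members, too, the Esrrb groups overlapped. A region 13634 bp from Thrb, a thyroid hormone receptor gene, held 21, 186 and 279 reads. It rose with Nanog by 0.83 ± 0.27 on the log2 scale (edgeR adjusted p = 0.028), from 0.894, 1.61 and 0.783 CPM to 1.89, 1.7 and 2.25 CPM. That call was lost when either NanogKO:Esrrb replicate 1 or 3 was left out (edgeR adjusted p = 0.12 and 0.15), NanogKO:Esrrb:Nanog replicate 1 or 3 (0.051 and 0.063), or when TMM factors were not used (0.059).

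At the other end, the members with the highest levels in the Esrrb groups stood above the members' median in NanogKO as well. The highest, 1892 bp from B3gnt7, a glycosyltransferase gene (chr1:86309197-86309938), had 14.5, 14.8 and 14.5 CPM in NanogKO, 25.2, 28.8 and 22.1 with Esrrb and 37.7, 32 and 38.2 with both factors. The 3 groups did not overlap, and the rise with Nanog was 0.50 ± 0.12 on the log2 scale (edgeR adjusted p = 0.0029). A region in Lrch4 (chr5:137631047-137631557) stood at 4.17, 4.46 and 5.62, then 21.2, 20.6 and 14.9, then 33.1, 37.8 and 36.4 CPM in the same order. It rose with Nanog by 0.92 ± 0.13 (edgeR adjusted p = 2.3e-05). In Kalrn, the member (chr16:34175273-34176577) had the lowest NanogKO level of the highest members named here, with 2.41, 2.22 and 2.88 CPM. It had 22.2, 23.1 and 21.3 CPM with Esrrb and 29.7, 29.7 and 33.7 with both factors, a rise of 0.48 ± 0.11 (edgeR adjusted p = 0.0034).

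With Nanog on top of Esrrb, 3382 members (21.0%) rose and 546 (3.40%) fell, where 12.6% of all tested regions rose and 12.0% fell. The median log2 fold change was 0.17 over members, with 5th and 95th percentiles of -0.54 and 1.03, against -0.01 over all regions (-0.92 and 0.73). More than 2-fold, 879 members (5.47%) rose, against 1.89% of all regions, and 32 (0.199%) fell, against 3.63%. All 3 libraries with Nanog lay above all 3 without in 4583 members (28.5%, against 18.3% of all regions) and below in 1438 (8.95%, against 19.4%). The rule shaped this balance, since a member needed an interval in the NanogKO:Esrrb:Nanog list. Over the 29654 regions in the NanogKO:Esrrb list and not in the NanogKO list, whatever the remaining list held, 11.5% of those tested rose and 13.6% fell, with a median of -0.15. Without that condition, falls were thus more frequent than rises, but this set still needed an interval in the NanogKO:Esrrb list, which can favour falls. Over regions in the NanogKO:Esrrb:Nanog list and not in the NanogKO list, whatever the remaining list held, 21.9% rose and 2.24% fell (median 0.26). That set needed an interval in the NanogKO:Esrrb:Nanog list, which can favour rises. Its intervals also carried peak names of NanogKO:Esrrb replicate 3, so it was not free of peaks from the NanogKO:Esrrb group. Over regions in both Esrrb lists, whatever the NanogKO list held, 15.8% rose and 7.8% fell (median 0.07).

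Both counts moved with the scaling and with single libraries. Without TMM factors the median of all regions shifted from -0.01 to -0.11, 2435 members rose and 835 fell, and the share of rises among called members went from 86.1% to 74.5% (over all regions from 51.1% to 33.5%). Without NanogKO:Esrrb replicate 3, the library whose peaks named the members, 2091 members (13%) rose, against 7.96% of all regions. The number of falls was 270 without NanogKO:Esrrb replicate 1, 317 without its replicate 2, 304 without NanogKO:Esrrb:Nanog replicate 1 and 350 without its replicate 2.

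**Figure D2:**
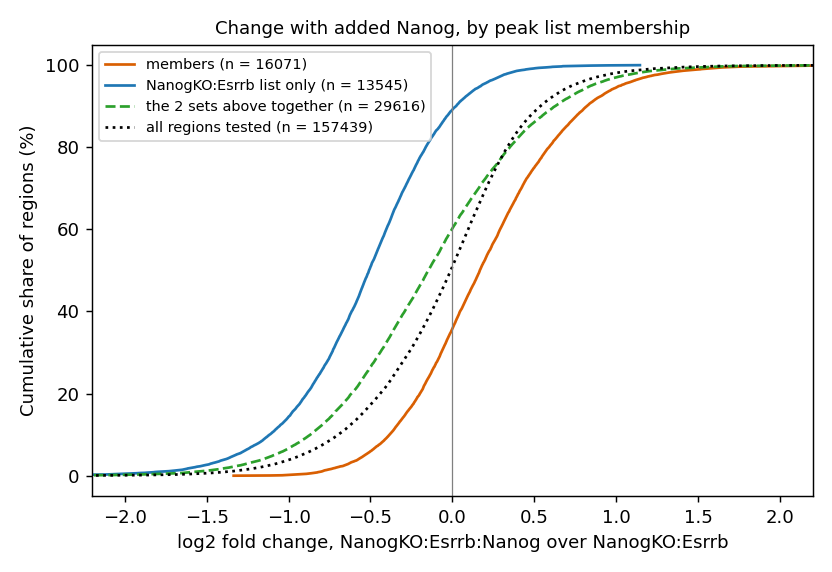
Cumulative share of regions (percent) by log2 fold change of NanogKO:Esrrb:Nanog over NanogKO:Esrrb. Members (median 0.17) lie to the right of all tested regions (median -0.01), regions in the NanogKO:Esrrb list only lie to the left (median -0.51), and both sets together have a median of -0.15.

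The largest rises with Nanog, among members at or above the members' median abundance, started from low levels in NanogKO:Esrrb. These members were picked by that rise, so a low starting level follows in part from the choice. A region 326071 bp from Trps1, a GATA-type repressor gene (chr15:50328323-50328686), had 0.78, 1.03 and 0.973 CPM in NanogKO, 1.25, 1.94 and 1.57 with Esrrb and 7.8, 10.9 and 16.4 with both factors. It rose by 2.88 ± 0.22 on the log2 scale, or 7.35-fold (edgeR adjusted p = 2.3e-09). A region in Sox5, a SOX family factor gene (chr6:143960631-143960795), had 0.994, 0.888 and 0.678 CPM without Nanog and 5.62, 5.84 and 5.95 CPM with it, a rise of 2.77 ± 0.21 (edgeR adjusted p = 1.4e-09). In Cdh23, a cadherin gene best known from hair cells (chr10:60607300-60607615), the level went in 2 steps, from 0.463, 0.312 and 0.405 CPM in NanogKO to 1.29, 1.59 and 1.51 CPM with Esrrb and 7.8, 8.8 and 8.28 CPM with both. Its rise with Nanog was 2.49 ± 0.18 (edgeR adjusted p = 9.3e-10). The remaining members of these 5 were 97899 bp from Ccnd2, the gene of cyclin D2 (2.61 ± 0.26), and in Iqck (2.49 ± 0.19). The libraries with Nanog spread widely at Ccnd2, with 4.89, 3.67 and 9.16 CPM against 0.954, 1.04 and 0.939 CPM without. At Trps1, Ccnd2 and Iqck the NanogKO:Esrrb mean was 1.59, 0.977 and 1.23 CPM, against 0.927, 0.76 and 0.986 CPM in NanogKO. The larger step at these members was thus the one with both factors, the step by which they were chosen.

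The largest falls ended at levels near those of NanogKO. Members were chosen without a NanogKO peak and these 5 were picked for their fall, so the choice itself favours this. A region 22935 bp from Cd2, a T cell adhesion gene (chr3:101251942-101252973), had 2.32, 2.61 and 4.26 CPM in NanogKO, 5.68, 7.47 and 6.16 with Esrrb and 2.41, 2.32 and 2.89 with both factors. It fell by 1.34 on the log2 scale (SE 0.2, edgeR adjusted p = 3.4e-05), and NanogKO and NanogKO:Esrrb:Nanog overlapped. A region 458 bp from Ccdc187 had 1.41, 1.47 and 1.4 CPM in NanogKO, 3.48, 3.94 and 2.82 with Esrrb and 1.56, 1.32 and 1.42 with both factors, a fall of 1.25 (SE 0.2, edgeR adjusted p = 9.8e-05). A region 2213 bp from Med13, which encodes a subunit of the Mediator kinase module, had 5.88, 5.59 and 5.08 CPM without Nanog and 2.9, 1.58 and 2.7 CPM with it (log2 fold change -1.18 ± 0.21). Regions in Macrod2, an ADP-ribose hydrolase gene, and 7388 bp from Mier3 completed these 5, with log2 fold changes of -1.15 ± 0.23 and -1.11 ± 0.22. In all 5 the NanogKO and NanogKO:Esrrb:Nanog libraries overlapped.

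**Figure D3:**
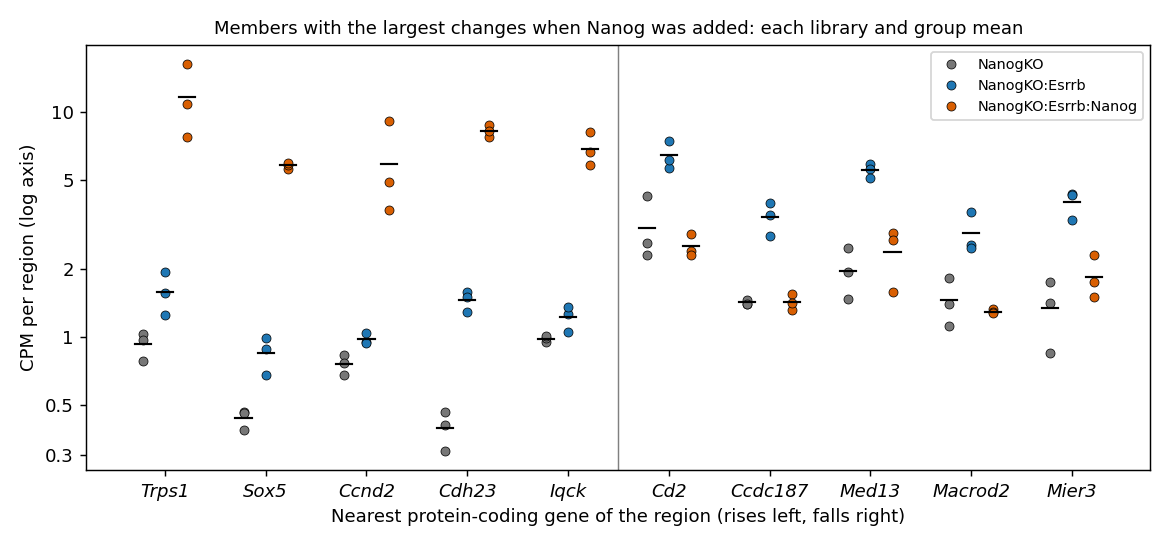
CPM (log axis) in each library (points) with group means (bars) for the 5 members with the largest rises and the 5 with the largest falls when Nanog was added, labelled by nearest protein-coding gene. The risers reach means of 5.8 to 11.7 CPM with Nanog, and the fallers drop from means of 2.89 to 6.44 CPM to means of 1.3 to 2.54 CPM.

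Members that rose and members that fell with Nanog differed in where they lay. Of those that rose, 56% lay in a protein-coding gene and 9.37% within 1 kb of a gene start, against 44.3% and 4.58% of those that fell and 52.6% and 7.44% of those not called. Median lengths were 262, 362 and 253 bp. In NanogKO the median levels of the 3 sets were close, at 1.21, 1.37 and 1.17 CPM. In NanogKO:Esrrb they were 2.40, 2.77 and 1.92 CPM, and with Nanog 4.41, 1.65 and 2.00 CPM. The sets were split by the call between the Esrrb groups, so their levels in those groups follow in part from the choice. These differences of place and length are descriptive and carry no test.

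Genes of the naive pluripotency network held the most members among 15 gene lists, and also the most called higher. In or within 50 kb of these 19 genes lay 338 counted regions, of which 58 (17.2%) were members, against 10.2% over the genome. With Nanog, 28 of the 58 rose and 0 fell, with a median of 0.49, beside 21.0% rising and a median of 0.17 over all members. The list contains Esrrb and Nanog themselves, and of the 28 rises 7 were at Esrrb and 5 at Tfcp2l1. The number rising was 20 without TMM factors and 19 without NanogKO:Esrrb replicate 3. It was 21 without NanogKO:Esrrb replicate 1 or without NanogKO:Esrrb:Nanog replicate 2. Regions around a gene are neighbours and not independent. For every list below, rises and falls are to be read beside 21.0% and 3.40% of all members, and 12.6% and 12.0% of all tested regions.

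At Esrrb itself, 10 of 40 regions were members, 9 of them in the gene, and 7 rose with Nanog. Their summed level was 16.5, 18.2 and 22.5 CPM in NanogKO, 49.6, 53.3 and 45.5 with Esrrb and 86.3, 80.1 and 90.8 with both factors, with no overlap between groups. The most open member (chr12:86503894-86504645) carried much of this sum and rose with Nanog by 0.82 ± 0.12 on the log2 scale (edgeR adjusted p = 4.4e-05). The largest relative rise was 1.29 ± 0.16 (edgeR adjusted p = 4.7e-06) at chr12:86484458-86484594, from 2.82, 2.95 and 2.84 CPM to 7.51, 7.39 and 6.16 CPM. That member had 1.98, 1.76 and 2.13 CPM in NanogKO, so its step with Esrrb alone was small. A member 16687 bp outside the gene went the other way without passing the test (-0.67 ± 0.27, edgeR adjusted p = 0.066). Esrrb was also the factor added to both Esrrb groups, and reads from any added copy were not told apart from those of this locus.

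Tfcp2l1 and Tet2 showed the same order of groups. At Tfcp2l1, the gene of a naive pluripotency factor that LIF signalling induces, 7 of 19 regions were members and 5 rose with Nanog. Their summed level was 14.0, 17.3 and 19.9 CPM in NanogKO, 35.3, 50 and 34.7 with Esrrb and 62.4, 67.2 and 59.6 with both factors. The most open of them, 1131 bp from the gene, had 13.3, 22.2 and 13.4 CPM in NanogKO:Esrrb, where replicate 2 stood apart, and 23.1, 26 and 21.4 CPM with Nanog (0.52 ± 0.15, edgeR adjusted p = 0.015). This call was lost without NanogKO:Esrrb replicate 1 or 3 (edgeR adjusted p = 0.1 each) and without NanogKO:Esrrb:Nanog replicate 2 (0.076). A member inside the gene (chr1:118676457-118676749) separated the groups more widely, from 0.463, 0.569 and 1.16 CPM through 3.06, 3.30 and 3.39 CPM to 9.19, 8.36 and 7.82 CPM. It rose with Nanog by 1.38 ± 0.19 (edgeR adjusted p = 1.5e-05). At Tet2, which encodes an enzyme that oxidises methylated cytosine, 6 of 26 regions were members, and 5 rose with Nanog by 0.64 to 1.09. Their summed level was 5.10, 6.63 and 7.66 CPM, 14.7, 15.4 and 13.5 CPM, and 22.8, 28.7 and 26.8 CPM in the same order of groups.

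Of 5 members near Zfp42, the gene of the zinc finger marker REX1, 2 rose, and of 4 near Klf5, a Krüppel-like factor, 2 rose. At Nr5a2, a nuclear receptor gene, 7 of 26 regions were members and only 1 rose. Prdm14 and Tbx3, genes of transcription factors that support the naive state, had 3 members each, with 2 rising at each gene. Klf2 had 2 members and Klf4 had 1, with log2 fold changes between -0.28 and 0.42, and none was called. At Nanog itself 1 of 10 regions was a member, and it was not called (0.46).

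Among general pluripotency genes 22 of 196 regions (11.2%) were members, and 6 rose and 0 fell with Nanog (median -0.06). Over all members 21.0% rose and 3.40% fell (median 0.17). Without NanogKO:Esrrb replicate 1 only 3 rose. All 3 members near Mycn, a MYC family gene, rose, by 0.52 to 1.37. The most open, 26045 bp from Mycn (chr12:12909482-12910048), had 3.98, 4.48 and 4.44 CPM in NanogKO, 6.14, 6.43 and 5.97 with Esrrb and 14.3, 16.8 and 16.8 with both factors (1.37 ± 0.13, edgeR adjusted p = 7.6e-08). The member 1977 bp from Dppa5a, a gene of a stem cell RNA-binding protein, had 8.23, 8.86 and 6.89 CPM without Nanog and 14.1, 16.2 and 12.2 CPM with it (0.82 ± 0.14, edgeR adjusted p = 0.00018). Of the 4 members near Sox2, 1 rose, and the range was -0.50 to 0.54.

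Formative and primed pluripotency genes held 28 members among 234 regions (12.0%), of which 12 rose and 1 fell (median 0.33). Foxd3 led the list with 8 of 20 regions. Its members had a summed level of 11.8, 13.7 and 14.6 CPM in NanogKO, 34.5, 34.0 and 33.5 with Esrrb and 55.8, 52.4 and 68.0 with both factors. A member 19823 bp from Foxd3 (chr4:99636073-99636476) rose by 1.83 ± 0.21 (edgeR adjusted p = 1.6e-06), from 0.585, 1.30 and 1.24 CPM in NanogKO through 3.56, 5.28 and 3.55 CPM to 13.3, 10.4 and 20.1 CPM. At the promoter window printed above, the member had 5.37, 5.35 and 5.78 CPM, 11.5, 9.76 and 11.1 CPM, and 16, 15.9 and 14.4 CPM, with no overlap between groups. The fall was near Otx2, a homeobox gene of the primed state, where 3 members ranged from -1 to 0.34. Near Tcf15, a gene of a basic helix-loop-helix factor, the most open member had 12.5, 13.9 and 12.6 CPM without Nanog and 17.2, 17.1 and 16.5 CPM with it (0.38 ± 0.12, edgeR adjusted p = 0.021). That call was lost without TMM factors (adjusted p = 0.085) and without NanogKO:Esrrb replicate 1 or 3 or NanogKO:Esrrb:Nanog replicate 1 or 2 (edgeR adjusted p from 0.054 to 0.084).

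Near nuclear receptor and coactivator genes, 45 of 350 regions (12.9%) were members, and 16 rose and 0 fell (median 0.38). The number rising was 7 without NanogKO:Esrrb replicate 3, 10 without NanogKO:Esrrb:Nanog replicate 2 and 10 without TMM factors, and 7 of the 16 were those at Esrrb. In Rarg, a retinoic acid receptor gene, the more open of 2 members (chr15:102240477-102241061) had 6.9, 4.74 and 6.83 CPM in NanogKO, 21, 20.2 and 17 with Esrrb and 27.1, 27.8 and 25.6 with both factors. It rose by 0.47 ± 0.13 (edgeR adjusted p = 0.0098), a call lost without NanogKO:Esrrb replicate 3 (edgeR adjusted p = 0.071). None of 4 members near Ncoa3, a nuclear receptor coactivator that works with ESRRB, was called (-0.51 to 0.48). Of 6 members near Ncor1, a corepressor gene, 1 rose.

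Genes of LIF and STAT3 signalling held 41 members among 248 regions (16.5%), of which 13 rose and 0 fell (median 0.25). The shares over all members were 21.0% and 3.40%. The number rising was 8 without NanogKO:Esrrb replicate 1 and 7 without either its replicate 3 or NanogKO:Esrrb:Nanog replicate 2, and 5 of the 13 were those of Tfcp2l1. At the genes of the LIF receptor subunits, none of 6 members near Lifr and none of 5 near Il6st rose or fell. Over the Lifr members the summed level was 4.32, 5.18 and 6.39 CPM in NanogKO, 11.2, 11.7 and 10.7 with Esrrb and 8.17, 10.4 and 9.77 with both factors, and each of the 6 log2 fold changes was below 0 with none called. Near Socs3, the gene of a feedback inhibitor of this pathway, 2 of 3 members rose. The most open was not called (0.24 ± 0.17, edgeR adjusted p = 0.31), and replicate 2 of NanogKO:Esrrb stood at 15.2 CPM beside 9.44 and 7.83 CPM. Without that replicate it rose by 0.56 (edgeR adjusted p = 0.0084).

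Near ERK feedback genes, 24 of 219 regions (11.0%) were members, and 9 rose and 0 fell (median 0.38). Only 3 rose without NanogKO:Esrrb replicate 1, without its replicate 3 or without TMM factors, and 5 without either of NanogKO:Esrrb:Nanog replicates 1 and 2. The member in Spry2, a Sprouty inhibitor gene, had 7.95, 8.12 and 8.96 CPM without Nanog and 13.4, 14.1 and 9.72 CPM with it (0.57 ± 0.14, edgeR adjusted p = 0.0052). A member 1496 bp from Etv4, an ETS factor gene, had 7.89, 10.3 and 7.22 CPM without Nanog and 12.9, 11.5 and 11.8 CPM with it (0.51 ± 0.15, edgeR adjusted p = 0.017). The Etv4 call was lost without TMM factors (adjusted p = 0.052) and without NanogKO:Esrrb replicate 1 or 3 or NanogKO:Esrrb:Nanog replicate 1 (edgeR adjusted p from 0.068 to 0.1).

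WNT target genes held 19 members among 193 regions (9.84%), and 7 rose and 0 fell (median 0.33). Tcf7l1, which encodes a repressor of the WNT pathway in stem cells, accounted for 5 of the 7, with 9 of 47 regions as members. The member 6590 bp from Axin2, a WNT feedback gene, had 4.35, 5.12 and 4.23 CPM without Nanog and 7.8, 8.71 and 7.33 CPM with it (0.79 ± 0.16, edgeR adjusted p = 0.001). It overlaps the promoter window of the predicted gene Gm46298. Near Notum, the gene of a secreted WNT inhibitor, the member had 21.5, 21.6 and 15 CPM without Nanog and 29.5, 24 and 25.8 CPM with it (0.45 ± 0.14, edgeR adjusted p = 0.018), a call lost without NanogKO:Esrrb replicate 3 or NanogKO:Esrrb:Nanog replicate 1 (edgeR adjusted p = 0.15 and 0.091).

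Lineage genes held members too. Primitive endoderm genes had 38 members among 242 regions (15.7%), of which 10 rose and 4 fell (median 0.16). Over all members 21.0% rose and 3.40% fell, with a median of 0.17. The rises numbered 5 without NanogKO:Esrrb replicate 1 or 3, without NanogKO:Esrrb:Nanog replicate 1 and without TMM factors, and 6 without NanogKO:Esrrb:Nanog replicate 2. At the laminin genes Lama1 and Lamc1, of the basement membrane, 3 of 6 and 2 of 5 members rose. At the remaining laminin gene of the list, Lamb1, neither of 2 members was called (-0.61 and -0.09). The 4 falls were the single member near Gata6, a master regulator of this lineage, which fell by 0.91 on the log2 scale, 2 of the 4 members near the basement membrane gene Nid2 and 1 of the 3 near Col4a1. The most open member of the list, also in Nid2, rose by 0.45 ± 0.14 (edgeR adjusted p = 0.025), a call lost without TMM factors (adjusted p = 0.086), without any 1 NanogKO:Esrrb library, or without NanogKO:Esrrb:Nanog replicate 1 or 2 (edgeR adjusted p from 0.054 to 0.12). In Col4a1, a collagen IV gene, the most open member had 7.05, 7.45 and 6.12 CPM without Nanog and 8.42, 6.07 and 7.47 CPM with it, groups that overlapped.

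Mesendoderm genes held 17 members among 129 regions (13.2%), with 6 rising and 0 falling (median 0.26), and trophoblast genes 28 among 207 (13.5%), with 7 rising and 1 falling (median 0.22). Of all members, 21.0% rose and 3.40% fell. Bmp4, the gene of a secreted signal and in both lists, supplied 7 members of its 18 regions. Their summed level was 6.07, 6.56 and 6.57 CPM in NanogKO, 25.6, 29.2 and 21.2 with Esrrb and 35.5, 36.7 and 36.3 with both factors. The most open, 1002 bp from Bmp4 (chr14:46391671-46392109), had 2.1, 2.22 and 1.84 CPM, then 9.82, 11.9 and 8.42 CPM, then 14.9, 16 and 15.9 CPM. It rose with Nanog by 0.64 ± 0.14 (edgeR adjusted p = 0.0014). A member 34760 bp from Kdr, a VEGF receptor gene, overlapped between the Esrrb groups (0.25 ± 0.21, edgeR adjusted p = 0.4). The most open member at Gata3, a trophoblast regulator, had 5.34, 4.67 and 3.99 CPM in NanogKO, 4.13, 3.5 and 3.79 with Esrrb and 4.31, 5.11 and 4.48 with both factors, and NanogKO overlapped both other groups. None of the 5 members at Gata3 was called. The single member near Elf5, a gene of trophoblast stem cells, rose by 2.01.

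Near neural genes, 15 of 161 regions (9.32%) were members, and 3 rose and 0 fell (median 0.19), beside 21.0% and 3.40% of all members. Only 1 rose without TMM factors or without NanogKO:Esrrb replicate 1 or 3 or NanogKO:Esrrb:Nanog replicate 2 or 3. The Tubb3 member, in a neuronal tubulin gene, rose by 0.58 ± 0.15 (edgeR adjusted p = 0.0056, and 0.051 without NanogKO:Esrrb:Nanog replicate 1). The member near Sox1 had 4.71, 4.43 and 5.03 CPM in NanogKO and 4.75, 3.53 and 3.98 with Esrrb, groups that overlapped. Endothelium and blood genes had 13 members among 149 regions (8.72%), with 4 rising and 0 falling (median 0.08), and 2 rising without NanogKO:Esrrb replicate 1 or NanogKO:Esrrb:Nanog replicate 2. One of these, 32550 bp from Cdh5, the gene of VE-cadherin, rose by 1.11 ± 0.16 (edgeR adjusted p = 2.1e-05), from 5.31, 5.31 and 4.44 CPM to 9.83, 12.9 and 10 CPM. Fibroblast genes had 12 members among 101 regions (11.9%), with 2 rising and 0 falling (median 0.09). A member in Fn1, the fibronectin gene, rose by 0.64 ± 0.16 (edgeR adjusted p = 0.0049), and one near Thy1 did not pass the test (-0.45 ± 0.19, edgeR adjusted p = 0.08, and 0.037 without TMM factors).

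The lists with the lowest shares of members were germline and early cleavage genes and housekeeping genes. Germline and early cleavage genes held 3 members among 69 regions (4.35%), of which 1 rose and 0 fell (median 0.42), and 2 rose without NanogKO:Esrrb replicate 2. The member near Tcstv1, an early cleavage gene, had 5.58, 6.87 and 5.06 CPM without Nanog and 6.68, 7.31 and 8.96 CPM with it. The member in Mael, a gene of the germline small RNA pathway, had 4.73, 4.77 and 3.13 CPM and 4.42, 7.1 and 5.41 CPM. Neither was called. Housekeeping genes held 4 members among 73 regions (5.48%), with 0 rising and 1 falling (median -0.15). The fall was in Ywhaz, a 14-3-3 protein gene, from 4.37, 4.19 and 4.42 CPM to 2.72, 3.43 and 2.97 CPM (log2 fold change -0.51 ± 0.17, edgeR adjusted p = 0.029). It was lost without NanogKO:Esrrb replicate 1 or 3 or NanogKO:Esrrb:Nanog replicate 1 (edgeR adjusted p from 0.08 to 0.11). The member in Tbp, the TATA-binding protein gene, had 3.08, 3.82 and 3.43 CPM without Nanog and 2.05, 3.26 and 3.49 CPM with it, groups that overlapped.

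**Figure D4:**
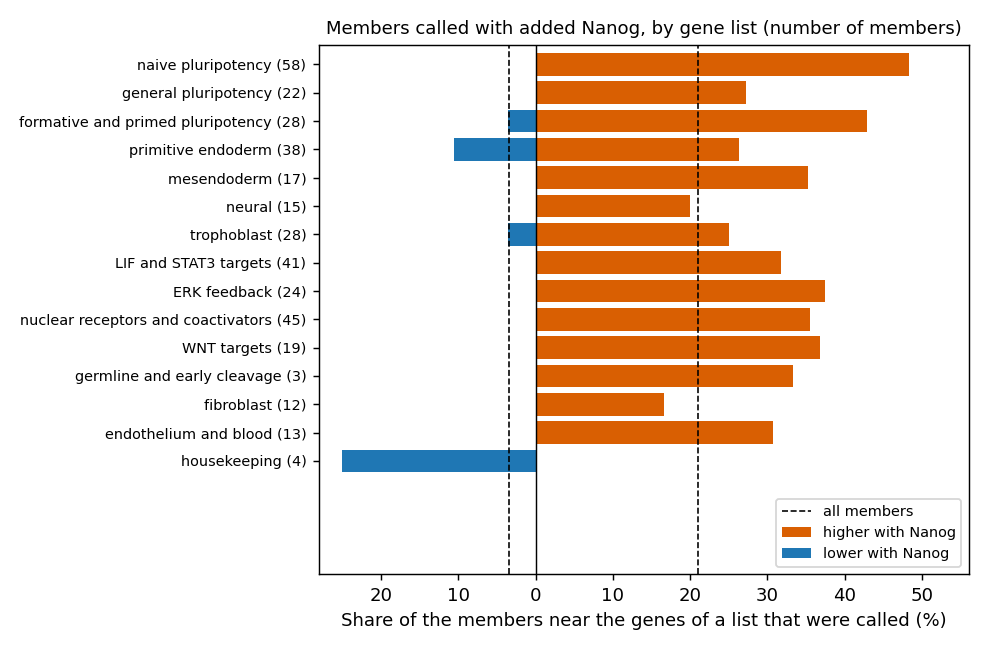
Share (percent) of the members in or within 50 kb of the genes of each list that were called higher (right) or lower (left) in NanogKO:Esrrb:Nanog than in NanogKO:Esrrb, with the number of members in brackets. Dashed lines mark 21.0% and 3.40%, the shares over all members, and several lists rest on few members (3 for germline, 4 for housekeeping).

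Members lay away from gene starts. Only 282 (1.75%) overlapped a promoter window, against 14.6% of regions in all 3 lists, 1.30% of regions in the NanogKO:Esrrb list only and 1.88% of those in the NanogKO:Esrrb:Nanog list only. The median distance to the nearest gene start was 19776 bp, against 13683 bp for regions in all 3 lists. In all, 53.1% lay in a protein-coding gene, exons and introns not told apart, and 16.2% lay over 50 kb from any, against 55.6% and 14.9% of all counted regions.

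**Figure D5:**
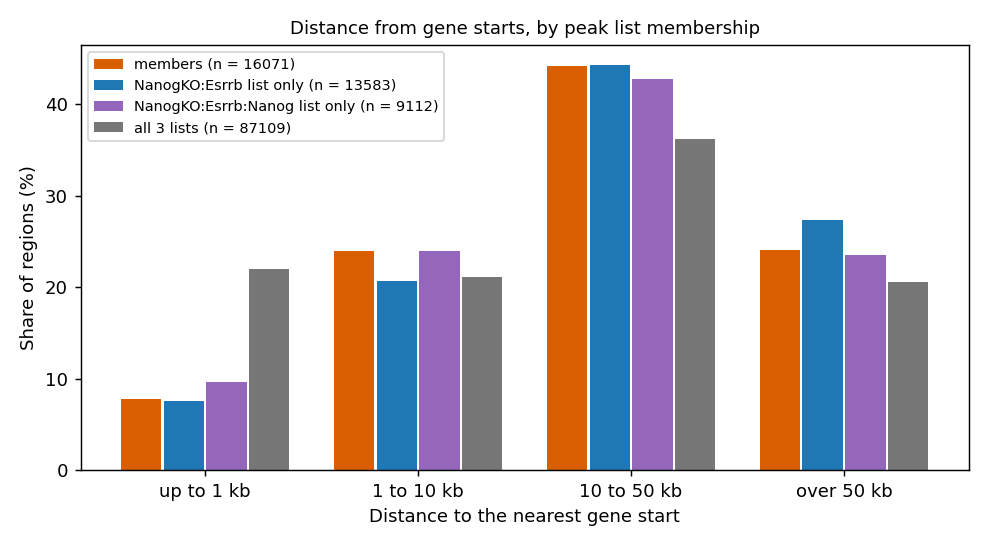
Share of regions (percent) by distance to the nearest gene start, for members and 3 other combinations of peak lists. Within 1 kb lie 7.75% of members, close to the 7.57% of regions in the NanogKO:Esrrb list only and below the 22% of regions in all 3 lists.

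The members at promoter windows with the highest levels varied in what happened with Nanog. At the start of 1110038B12Rik, 3632 bp from the heat shock gene Hspa1b, levels were 14.4, 12.1 and 9.06 CPM in NanogKO, 21.4, 18.5 and 13 with Esrrb and 21.1, 14 and 11.5 with both factors, and all groups overlapped. The member at Platr8, a noncoding RNA gene 3778 bp from Lgr4, had 16.2, 14.2 and 14.2 CPM and 13.7, 13.3 and 16.8 CPM in the Esrrb groups, which overlapped (-0.02 ± 0.13, edgeR adjusted p = 0.91). The member at Gm33542, inside Igsf21, had 2, 1.98 and 2.39 CPM in NanogKO, 11.4, 13.3 and 6.78 with Esrrb and 16.7, 21.5 and 18.1 with both factors. It rose with Nanog by 0.83 ± 0.17 (edgeR adjusted p = 0.00088). The member at Gm41131, 4962 bp from Sncg, fell from 16.8, 17.9 and 12.4 CPM to 12.2, 9.01 and 13.4 CPM (-0.44 ± 0.16, edgeR adjusted p = 0.043). The Esrrb groups overlapped there, and the call was lost without NanogKO replicate 3, NanogKO:Esrrb replicate 1 or 2, or NanogKO:Esrrb:Nanog replicate 1 or 2 (edgeR adjusted p from 0.051 to 0.23).

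Members were spread over many genes, with some concentrations. Of the 16071 members, 13472 lay in or within 50 kb of 7233 protein-coding genes, 4238 of which had 1 member and 34 had 10 or more. Msi2, the gene of an RNA-binding protein, had the most, with 22 of 113 regions. Its members had a summed level of 30.5, 37.5 and 36.1 CPM in NanogKO, 86.3, 101 and 77.1 with Esrrb and 101, 117 and 121 with both factors, where NanogKO:Esrrb replicate 2 stood as high as NanogKO:Esrrb:Nanog replicate 1. Pcsk6, which encodes a proprotein convertase, had 15 of 30 (50%). The Pcsk6 sum went from 12.6, 13.5 and 14.6 CPM to 57.7, 62.2 and 49.4 CPM with Esrrb, and stood at 56.5, 64.3 and 58.3 CPM with Nanog, with the Esrrb groups overlapping, 3 members rising and 2 falling. Tmem132d, a transmembrane protein gene, had 8 of 12 members rising and 0 falling. Its sum was 11.4, 10.1 and 11.2 CPM, then 25.8, 28.6 and 22.6 CPM, then 42.3, 47.8 and 53.7 CPM. At Foxo3, the gene of a forkhead factor, 13 of 31 regions were members and 4 rose. At Pkp4, a plakophilin gene, 16 of 40 were, with 5 rising and 1 falling.

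Along the chromosomes, the share of counted regions that were members ranged from 7.85% on chromosome X to 11.4% on chromosome 6. Among 1221 windows of 2 Mb with at least 20 regions it ranged from 0 to 31.5% with a median of 9.36%, and 6 windows reached 25%. The highest, chr9:116000001-118000000, held 29 members among 92 regions, around Tgfbr2, a TGF-beta receptor gene, and Rbms3. The window chr1:76000001-78000000, with the ephrin receptor gene Epha4, held 23 of 82, and chr4:100000001-102000000, with Dnajc6, Ak4 and Jak1, held 47 of 179. The median log2 difference of NanogKO:Esrrb from NanogKO over the regions in all 3 lists was 0.28, 0.92 and 0.67 in these windows, and 0.03, 0.43 and 0.09 in the other 3 that reached 25%, which held 20 to 26 regions each. Of all members, 4844 (30.1%) had another member within 10 kb, and the median distance between neighbours was 23613 bp.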

How the data were processed

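ATAC-seq libraries from 3 groups of 3 were analysed, mapped to groups by their titles. The deposited table holds raw read counts per region for 9 libraries, whole numbers with no normalization, and no column was left unused. The authors' peak lists carry a score per peak, used only to rank or filter peaks. Coordinates are mm10, per the submitters' processing notes, and are printed counted from 1. The tools in these notes, given with no roles, are MACS2 2.2.0, bedtools 2.26.0, deepTools 4.4.0, Bowtie2, cutadapt, SAMtools 1.4.1 and bcl2fastq 2.19.1. The counting tool, any transposase shift, duplicate removal and mapping filters are not given in the sources used here. The series design counts 12 samples, and the others were not analysed here. Merging the 3 lists gave the 157497 counted regions exactly.

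All 9 libraries entered 1 edgeR 4.0.16 fit of group means in R 4.3.3, with TMM factors and filterByExpr (157439 regions tested, 6 residual degrees of freedom). The quasi-likelihood F test was used, with Benjamini-Hochberg adjustment over all tested regions and calls under 0.05. SE is the absolute log2 fold change over the root of F. The fit was tested on simulated counts. Each region took as its gene the closest protein-coding one in RefSeq GRCm38.p6, the assembly of mm10, and as its start the closest in the promoter table. "In" a gene means within its span and other distances run to the span.

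The members and the 15 gene lists were chosen with earlier results of these data known. Named members were the 5 largest rises and 5 largest falls with Nanog among called members at or above the members' median abundance whose libraries did not overlap, the 5 of highest level in the Esrrb groups, the 2 most open per list, the 5 most open at promoter windows, and the 5 of lowest NanogKO count with at least 100 reads in each other group, with 1 region per gene in each part. Of the members of highest level, 1 is not reported here. Genes described by summed CPM were chosen after the values were seen, by their number of members.

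Deviations of libraries from their group means correlated at 0.117 to 0.152 between same-numbered libraries of NanogKO and NanogKO:Esrrb, 0.105 to 0.146 between the Esrrb groups, and 0.002 to 0.136 between NanogKO and NanogKO:Esrrb:Nanog, against -0.098 to 0.045 for different numbers. The numbers were taken to pair the first 2 of these. The main fit held no replicate block, so its counts and p-values leave this pairing out. With Nanog it gave 3382 rises and 546 falls among members, and the fit with the block gave 3784 and 694. The pairing comes from these values only, and the labels record neither cultures nor days.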

Additional observations from a re-analysis of the deposited data

How the results depend on the processing

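Counts of members called were compared across library totals without TMM factors, DESeq2, no filter, a filter of 1 CPM in 3 libraries, the compared groups alone, the replicate block, each library left out, and stricter membership. The replicate block gave 3784 rises and 694 falls with Nanog and moved no count by over 1.5 times. For NanogKO:Esrrb:Nanog against NanogKO:Esrrb, leaving out 1 library gave 2091 to 3422 rises and 270 to 714 falls, and totals without TMM factors gave 835 falls. For NanogKO:Esrrb against NanogKO, leaving out 1 library gave 8648 to 10394 members higher and 21 to 65 lower. For NanogKO:Esrrb:Nanog against NanogKO it gave 10131 to 11051 higher and 69 to 116 lower, and no TMM factors gave 175 lower. Requiring that both lists cover at least 50% of the region left 9809 members, with 96 falls with Nanog, 6227 higher in NanogKO:Esrrb than in NanogKO, and 46 lower in NanogKO:Esrrb:Nanog than in NanogKO. Requiring peaks at or above the median score of their list left 799 members, with 234 rises and 48 falls with Nanog, 634 higher and 2 lower with Esrrb against NanogKO, and 666 higher and 4 lower with both factors against NanogKO. The shares rising and falling with Nanog were 30.7% and 0.979% under the first of these, 29.3% and 6.01% under the second and 21.0% and 3.40% in the report, so the fewer members do not account for all of the change, and the cause was not tested. The alternatives for each gene list, and the rule without its condition on either Esrrb list, were chosen after seeing the data. With all genes of the table in place of protein-coding ones, 62.0% of members lay in a gene, 4.39% beyond 50 kb and 3.38% outside a gene within 1 kb, against 53.1%, 16.2% and 2.3%. For the 49 named members, the alternatives were no TMM factors, the 1 CPM filter, the replicate block and each library left out. Of these 585 values, 0 changed sign past the threshold, 35 lost a call and 3 gained one. The median member held 44 to 136 reads in a library, which limits precision at single members.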
